A study of Mus musculus with 24 samples.

Results

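Livers of FXR-knockout mice were compared with livers of wild-type mice while both genotypes received the FXR agonist obeticholic acid (OCA, INT-747). The comparison used 12 of the 24 arrays of the series, 6 knockout and 6 wild-type, which were chosen by the genotype and treatment in their titles, and each array held the liver of a different mouse. All were male C57BL/6 mice on chow, 9 to 12 weeks old when treatment began, and both genotypes were dosed by gavage with OCA, suspended in 1% methyl cellulose, at 10 mg/kg/day over 7 days. The knockouts are given as FXR-/- mice, with no Cre or tissue restriction named, and the sources used here do not say how the control mice were bred. The remaining 12 arrays are 6 wild-type and 6 FXR-/- mice of the same sex, strain and age that received 1% methyl cellulose alone, and they entered only the comparisons with vehicle given further on. The values are the authors' log2 expression values for 18820 named genes, each taken from the probe set with the highest mean.

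FXR, encoded by Nr1h4, is a nuclear receptor that bile acids switch on. In hepatocytes it induces Nr0b2, which encodes the repressor SHP, and the bile acid exporters Abcb11 and Slc51a/Slc51b, and it lowers Cyp7a1 and Cyp8b1, the genes of enzymes that make bile acids from cholesterol. OCA is a semi-synthetic bile acid that binds FXR, so the comparison sets livers with a drug-driven receptor against livers without it.

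The promoters of the 4 genes that mark this comparison, Nr0b2, Slc51b, Abcb11 and Cyp8b1, are shown first, with that of Steap3, because FXR is known to bind an inverted repeat of hexamers spaced by a single base. The 250 bases before each annotated start are from RefSeq, build GRCm38.p6, read 5′ to 3′ on the strand of the gene. Capitals mark the window with the most letters in common with AGGTCANTGACCT, whose 12 fixed letters read the same on both strands.
Nr0b2, chr4:133553126-133553375, plus strand: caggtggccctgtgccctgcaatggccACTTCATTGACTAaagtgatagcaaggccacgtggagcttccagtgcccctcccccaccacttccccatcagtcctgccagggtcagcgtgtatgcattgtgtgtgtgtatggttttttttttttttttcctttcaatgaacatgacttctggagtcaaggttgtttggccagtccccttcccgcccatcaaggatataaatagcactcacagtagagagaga
Slc51b, chr9:65422774-65423023, minus strand: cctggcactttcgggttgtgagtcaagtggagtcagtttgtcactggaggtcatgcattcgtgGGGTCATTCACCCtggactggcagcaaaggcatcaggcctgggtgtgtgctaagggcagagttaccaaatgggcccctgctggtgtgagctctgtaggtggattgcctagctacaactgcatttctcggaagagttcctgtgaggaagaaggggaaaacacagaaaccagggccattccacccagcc
Abcb11, chr2:69342617-69342866, minus strand: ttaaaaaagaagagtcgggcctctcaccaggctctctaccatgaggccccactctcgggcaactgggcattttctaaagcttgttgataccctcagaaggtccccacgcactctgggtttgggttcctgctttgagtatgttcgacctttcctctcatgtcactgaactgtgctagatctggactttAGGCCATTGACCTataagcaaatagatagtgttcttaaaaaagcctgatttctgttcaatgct
Cyp8b1, chr9:121916306-121916555, minus strand: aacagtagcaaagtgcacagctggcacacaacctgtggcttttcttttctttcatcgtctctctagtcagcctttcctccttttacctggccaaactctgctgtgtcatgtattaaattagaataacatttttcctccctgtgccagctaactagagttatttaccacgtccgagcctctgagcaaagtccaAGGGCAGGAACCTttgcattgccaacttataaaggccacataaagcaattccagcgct
Steap3, chr1:120270271-120270520, minus strand: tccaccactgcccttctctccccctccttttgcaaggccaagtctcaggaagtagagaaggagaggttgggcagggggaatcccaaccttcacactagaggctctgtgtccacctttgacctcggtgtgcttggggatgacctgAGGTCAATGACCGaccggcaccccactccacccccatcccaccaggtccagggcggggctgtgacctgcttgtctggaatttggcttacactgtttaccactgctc
The Abcb11 window matched 11 of the 12 letters and began 63 bases before the start, and the Steap3 window matched 11 and began 106 bases before 1 of its 4 annotated starts. The best windows before the other Steap3 starts matched 9, 7 and 8 letters. Steap3 is not one of the 4 markers and was added after its values were seen. The windows of Slc51b and Cyp8b1 matched 9 letters and that of Nr0b2 matched 8. Of 32851 mouse promoters of this length, 0.0822% held a window with at least 11 letters, 11.4% held at least 9 and 56.4% at least 8, so the matches of Nr0b2, Slc51b and Cyp8b1 were of a common kind. Measured genes with at least 11 letters numbered 15, and of these 5 were lower in knockout liver and 1 was higher under the test described below. Of all genes 31.3% passed it, 13.7% lower and 17.6% higher. Olfr53 and 4930474M22Rik matched all 12 letters and did not pass (limma adjusted p = 0.685 and 0.287). The lower 5 were Abcb11, Steap3, Saa4, Slco1b2 and Nbr1, and the higher gene was Tbc1d14, all named after their values were seen. The calls of Saa4, Slco1b2 and Tbc1d14 ended with the code-number block described below. A match in letters is a description of the sequence and does not show a binding site, and a window without one says nothing about FXR elsewhere at the gene.

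Nr0b2, Slc51b and Abcb11, which FXR is known to induce, were lower in every knockout liver than in any wild-type liver, and Cyp8b1 and Cyp7a1, which it is known to lower, were higher. Nr0b2, the gene of SHP, read 7.31 at the lowest, 8.02 at the median and 8.62 at the highest in the 6 wild-type arrays, against 3.57, 4.01 and 4.82 in the 6 knockout arrays. The genotypes lay far apart, and the log2 difference was −3.83 ± 0.23 (SE), a 14.2-fold gap (limma, Benjamini-Hochberg adjusted p = 1.43e-08, n = 6 and 6). Slc51b, the beta subunit of the basolateral bile acid exporter, ran from 5.23 through a median of 5.66 to 6.12 in wild-type liver and from 3.57 through 3.63 to 3.97 in knockout liver. Every wild-type array was above every knockout array, with a difference of −2.0 ± 0.12 (3.99-fold, limma adjusted p = 1.94e-08). Abcb11, the bile salt export pump of the canaliculus, ran from 11.39 through 11.51 to 11.75 in wild-type and from 9.62 through 9.98 to 10.07 in knockout arrays. It remained one of the brighter genes without the receptor, and its difference was −1.65 ± 0.09 (3.15-fold, limma adjusted p = 8.47e-09).

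Cyp8b1, the sterol 12-alpha-hydroxylase that directs synthesis towards cholic acid, was higher in knockout liver. Its wild-type arrays spanned 9.09 to 10.05 with a median of 9.70, and its knockout arrays spanned 11.43 to 11.73 with a median of 11.49. The groups did not overlap, and the difference was 1.96 ± 0.14 (3.9-fold, limma adjusted p = 9.16e-08). Cyp7a1, which encodes the enzyme that sets the pace of bile acid production, spanned 8.01 to 10.41 with a median of 9.61 in wild-type liver and 10.98 to 11.42 with a median of 11.17 in knockout liver. The wild-type livers varied widely (SD 0.86) and the knockout livers little (SD 0.16), and the difference was 1.70 ± 0.30 (limma adjusted p = 4.85e-04). When the code number of the arrays was added as a block, explained below, the Cyp7a1 difference was 0.26 and did not pass (limma adjusted p = 0.855), while the calls of Nr0b2, Slc51b, Abcb11 and Cyp8b1 held.

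**Figure D1:**
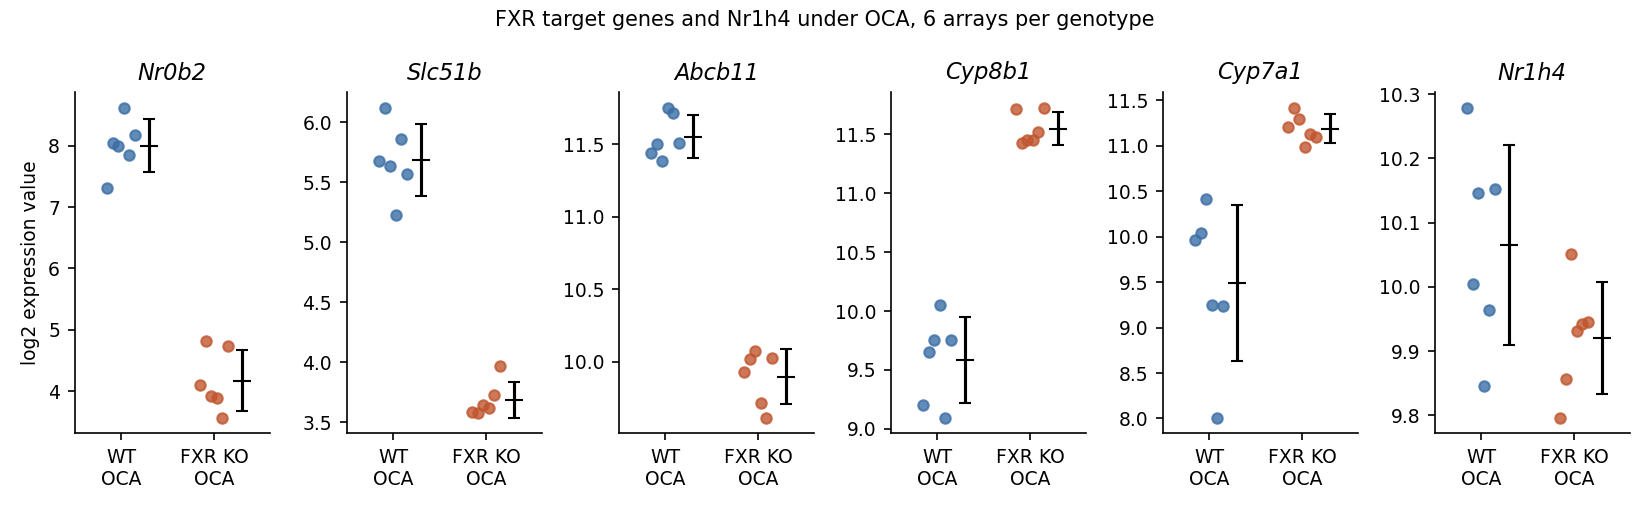
Log2 expression values of Nr0b2, Slc51b, Abcb11, Cyp8b1, Cyp7a1 and Nr1h4 in the 6 wild-type (blue) and 6 FXR-knockout (orange) livers under OCA, 1 point per array, with the mean and SD in black and a vertical axis of its own for each gene. The genotypes do not overlap for the first 5 genes, whereas Nr1h4 overlaps within an axis that spans only 9.80 to 10.28.

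Nr1h4 itself did not separate the genotypes. Its signal ran from 9.85 to 10.28 in wild-type and from 9.80 to 10.05 in knockout arrays, and the difference of −0.14 ± 0.08 did not pass (limma adjusted p = 0.17). A probe set that lies outside the deleted part of a gene says nothing about the deletion, and the sources used here do not give the position of this one. Of hepatocyte markers, Alb, the gene of albumin, had means of 13.47 and 13.33 in wild-type and knockout liver, near the top of the scale.

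The 12 arrays correlated with each other at 0.978 to 0.997, and the first principal component, with 61.7% of the variance, placed the wild-type arrays between −32.3 and −27.8 and the knockout arrays between 27.0 and 31.6. On the next component (7.6%) wild-type replicates 5 and 6 stood at −23.0 and −15.7, apart from the other wild-type arrays. The array names carry a code number that was 5 in all wild-type and 9 in all knockout OCA arrays, so within these 12 arrays the number and the genotype cannot be told apart. The sources used here do not say what the number stands for. It was addressed with 2 other measurements: a fit over all 24 arrays with the number as a block, which is linked through vehicle arrays that share numbers across groups, and the genotype gap between 4 knockout and 4 wild-type vehicle arrays that all carry number 7. In the blocked fit the step from 5 to 9 is set by few arrays. Knockout vehicle replicates 1 and 2 carry 9 and the others 7, and wild-type vehicle replicates 5 and 6 carry 5 and the others 7. Blocked differences are therefore imprecise. A call that ends or a gap that grows with the block does not by itself show what the number did.

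The genotypes differed in many genes of varied function. Of 18820 genes, 5893 (31.3%) passed an adjusted p of 0.05 in limma with Benjamini-Hochberg adjustment and are referred to as called. In knockout liver 3310 genes were higher (17.6%) and 2583 were lower (13.7%), which makes 56.2% of the calls higher. When every array was centred on its median over all 18820 named genes, the median gene shifted from −0.02 to −0.21. Of 11313 calls 16.9% were then higher. Lists described below as centred on the named genes had this centring. No called gene of the lists below changed sign under that centring, but small differences near 0.2 should be read against that shift. Calls of at least 2-fold numbered 631, 446 higher (2.37%) and 185 lower (0.983%). The 6 knockout values lay wholly above or below the 6 wild-type values in 3459 genes (18.4%), above in 2051 (10.9%) and below in 1408 (7.48%). Blocking on the code number left 2336 called genes (12.4%; 7.45% higher and 4.96% lower), 2064 of them among the calls above and in the same direction.

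Leaving out predicted genes, Hsd3b5 showed the largest loss in knockout liver and Cyp2b9 the largest gain. Hsd3b5, a male-predominant hydroxysteroid dehydrogenase, reached 10.14 at the median of wild-type arrays and no less than 9.73, and it spanned 2.12 to 3.21 in knockout arrays, median 2.73. That is a 176-fold gap (−7.46 ± 0.17, limma adjusted p = 1e-12) from among the brighter genes down to near the floor of the scale. Elovl3, a fatty acid elongase, spanned 9.85 to 11.21, median 10.30, against 2.75 to 4.17, median 3.32 (129-fold). Slco1a1, an organic anion transporter of the sinusoidal membrane, spanned 10.68 to 10.85, median 10.77, against 4.16 to 5.92, median 4.94 (59.3-fold). Its wild-type livers were nearly identical and its knockout livers were spread.

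The 15 lower genes with the largest differences ran from 7.9-fold to 176-fold. Beside these 3 genes and Nr0b2 they held Serpina4-ps1 (135-fold), a serpin pseudogene, the adhesion receptor gene Adgrf1 (16.8-fold) and Slc22a7 (15.1-fold), an organic anion transporter. The others were Ces3b, Cyp2d9, Mup21, Clec2h, Sult5a1, Obp2a, Serpina12 and Cyp2u1. Among the 15 genes with the largest gains, from 10.5-fold to 159-fold, Cyp2b9, Cyp2b13, Cyp2b10, Cyp2a22 and Cyp2c55 were cytochromes. Cyp2b9, which is female-predominant, spanned 3.53 to 6.33 in wild-type arrays, median 4.07, and 11.72 to 12.13 in knockout arrays, median 11.83. The difference was 7.31 ± 0.41 (159-fold, limma adjusted p = 8.45e-09), and the wild-type livers were much the more variable.

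The other gains of this size belonged to varied functions. Sprr1a, a cornified-envelope protein gene induced in stressed epithelia, was 42.8-fold higher, and Ly6d, a surface antigen gene, 30.7-fold. Mmp12, the macrophage metalloelastase, spanned 3.86 to 4.51, median 4.04, in wild-type and 7.75 to 8.84, median 8.54, in knockout liver (21-fold). Abcc4, a basolateral exporter of bile acids and conjugates, was 13-fold higher and Nt5e, the ecto-5′-nucleotidase CD73, 11.4-fold. Gprc5b, Sytl5, Akr1c18, Elapor1 and Atp6v0d2 completed the 15. In all 30 genes the genotypes did not overlap, beside 18.4% of all genes. The 30 were picked for size in these same arrays, so that separation is no separate support. All 30 were called in the same direction with the number block, which uses the same OCA arrays. They were also called in the same direction among vehicle arrays within number 7, which took no part in the choice.

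**Figure D2:**
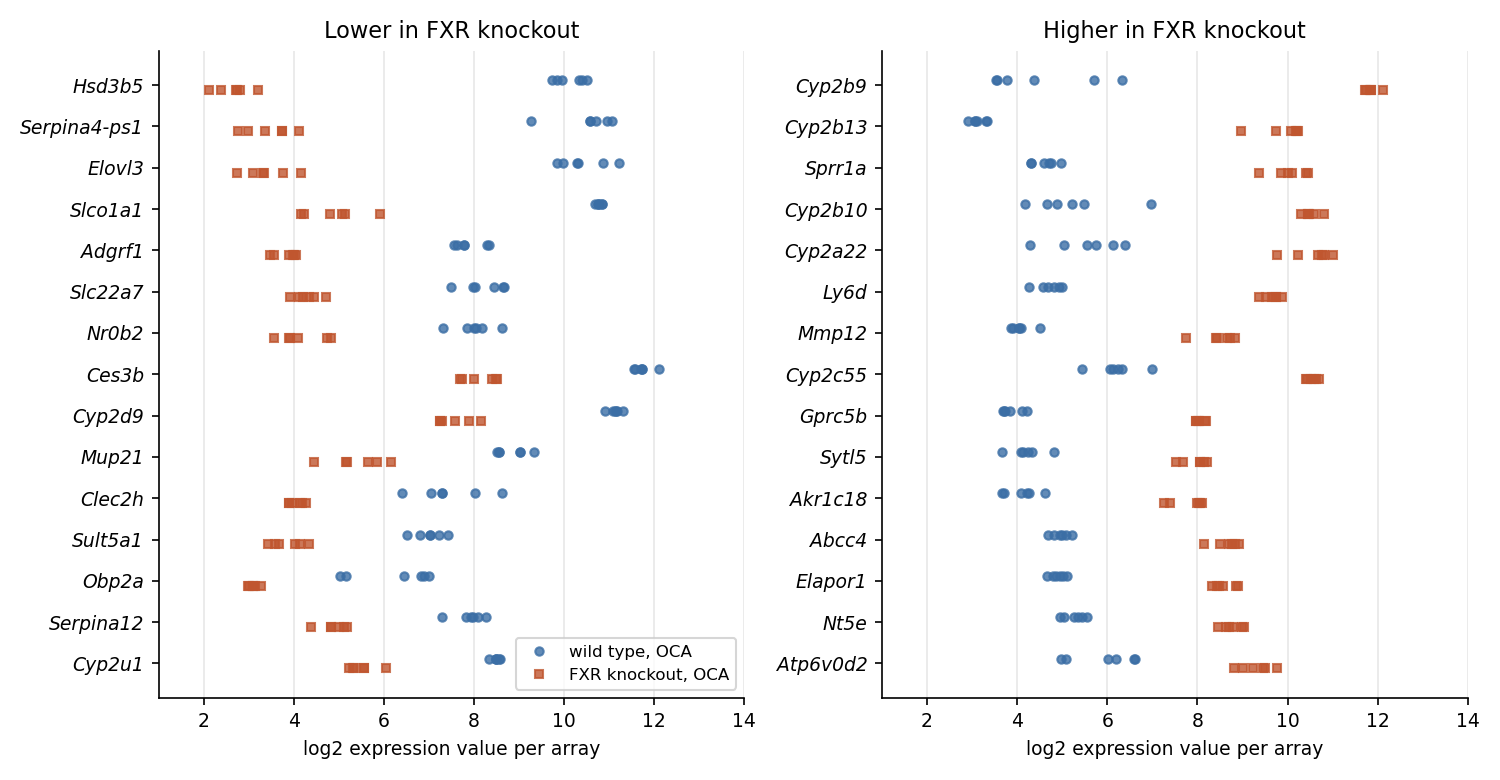
Log2 expression value of each array for the 15 lower (left) and 15 higher (right) genes with the largest differences, with wild-type OCA arrays as blue circles and FXR-knockout OCA arrays as orange squares, 6 of each. The genes were picked for large differences in these same arrays. No gene shows overlap, and Hsd3b5 and Cyp2b9 show the widest gaps.

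Genes of bile acid synthesis moved both ways. Cyp7a1 and Cyp8b1 were higher, as given above, while Cyp7b1, Cyp39a1 and Cyp2c70 were lower. Cyp7b1, the oxysterol 7-alpha-hydroxylase, was 6.79-fold lower (−2.76 ± 0.28), Cyp39a1, the 24-hydroxycholesterol hydroxylase, 2.66-fold lower (−1.41 ± 0.15), and Cyp2c70, the mouse enzyme of muricholic acid synthesis, 1.93-fold lower (−0.95 ± 0.11), all called. Of 15 measured genes of bile acid synthesis 5 were called higher and 8 lower, with a median difference of −0.34, against −0.02 over all genes, and 1 was called higher and 4 lower with the number block. Of 6 genes of taurine supply 1 was called higher and 3 lower (median −0.12), and 2 higher and 1 lower with the number block. The higher gene was Csad, which encodes the decarboxylase that makes taurine precursor for bile acid conjugation. It spanned 8.32 to 9.61, median 9.09, in wild-type and 10.90 to 11.18, median 11.00, in knockout arrays, without overlap (2.03 ± 0.17, 4.1-fold, limma adjusted p = 3.99e-07). The taurine transporter gene Slc6a6 was lower (−0.47, and −0.94 with the number block), with Cbs (−0.45) and Cth (−0.32) of cysteine synthesis. The calls of Cbs and Cth ended with the number block, and Cth lost its call without knockout replicate 1.

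Transporter genes also moved both ways. Of 13 export genes 4 were called higher and 5 lower, with a median of −0.05 (2 higher and 3 lower with the number block). Canalicular Abcb11 and the FXR target Slc51b were low, while the basolateral pumps Abcc4 and Abcc3 (2.39-fold, 1.26 ± 0.11) were high. Slc51a, the partner subunit of Slc51b, differed by only −0.05 and was not called. Of 8 uptake genes 6 were called lower and 2 higher, with a median of −0.49 (4 lower and none higher with the number block). Slc10a1, the sodium-dependent bile acid importer NTCP, was 1.29-fold lower (−0.37 ± 0.07), Slc22a7 15.1-fold lower and Slco1a1 59.3-fold lower, while Slco1a4, another anion importer, was 3.34-fold higher (1.74 ± 0.19), a call that ended with the number block (limma adjusted p = 0.0521). Of 16 measured genes described elsewhere as induced by FXR, 9 were called lower and 2 higher, with a median of −0.20. Beside the markers the largest loss in that list was Osgin1, an oxidative stress growth inhibitor gene (3.04-fold, −1.60 ± 0.23). Sdc1 (0.64) and Abcc2 (0.43), also described as induced, were higher, and both calls ended with the number block. Under that block 4 members of the list were called lower and none higher, and these 4 include Nr0b2, Slc51b and Abcb11.

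Nuclear receptor genes were lower where they differed: 7 of 12 genes of the receptor and FGF15 pathway list were called lower and none higher, with a median of −0.34 (3 lower with the number block). They included Nr1i2, the xenobiotic receptor PXR (−0.69 ± 0.08), Ppara, the fatty acid receptor (−0.65 ± 0.07), Hnf4a (−0.56 ± 0.07) and Rxra, the partner of FXR (−0.44 ± 0.07). With the number block the calls of Hnf4a (limma adjusted p = 0.223) and Rxra (0.111) ended. The Ppara difference was −1.09 with the block. Ppara spanned 10.33 to 10.57 in wild-type and 9.65 to 10.00 in knockout arrays, without overlap.

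The sexual pattern of liver expression was altered in these male mice. All 14 measured male-biased genes were called lower (median −2.28), and 10 of 12 female-biased genes were called higher and none lower (median 1.46). The lists were chosen with earlier results of these data known, so these counts are a description and not independent support. With the number block 9 male-biased genes were called lower and 5 female-biased genes higher. Growth hormone is the known driver of this pattern, and 7 of 11 genes of its signalling were called lower and 2 higher (median −0.43), and 3 lower and 1 higher with the number block. Igf1, the circulating growth factor it induces, spanned 10.99 to 11.13 in wild-type and 10.18 to 10.43 in knockout arrays (−0.75 ± 0.06, limma adjusted p = 3.45e-07). Igfals, the acid-labile subunit that carries it, was lower as well (−1.11 ± 0.10), while Igfbp3, the other partner of that complex, was higher (1.20 ± 0.09). Socs2 (−1.27), Cish (−1.24) and Onecut1 (−1.57) were lower with overlapping arrays, and their calls ended with the number block. Of 5 measured major urinary protein genes, whose products are male pheromone carriers, 4 were called lower, 3 with the number block, led by Mup21 (10.8-fold) and Mup3 (7.57-fold). Probe sets of close copies such as the Mup, Cyp2b and Cyp4a12 genes may pick up each other's transcripts, so single members of these families are uncertain.

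Genes of drug and toxin handling differed by family. Of 21 measured Cyp2b, Cyp2c and Cyp3a genes 10 were called higher and 3 lower (median 0.35), and 5 higher and 3 lower with the number block. Cyp2b10, the usual reporter of the receptor CAR, spanned 4.17 to 6.98, median 5.05, in wild-type and 10.31 to 10.80, median 10.47, in knockout liver (5.28 ± 0.34, 38.9-fold). Cyp3a11, the main reporter of PXR, was only 1.31-fold higher, and that call ended with the number block (limma adjusted p = 0.278). Other drug-metabolising cytochromes went mostly the opposite way, with 15 of 27 called lower and 7 higher (median −0.34) and 7 lower and 2 higher with the number block, for example Cyp2d9 (11.8-fold) and Cyp2d13 (2.24-fold).

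Glutathione transferase genes were higher in 10 of 17 cases and lower in 2 (median 0.36), and in 5 and 1 with the number block, with Mgst3 at 4.64-fold and Gstm3 at 3.37-fold. Of 14 genes of the NRF2 antioxidant response 11 were called higher and 1, Osgin1, lower (median 0.83), and 7 higher and 1 lower with the number block. The median level of the list in each array overlapped between genotypes, at 9.02 to 9.25 in wild-type and 8.98 to 9.39 in knockout liver. The log2 of the summed levels did not overlap, at 13.48 to 13.68 in wild-type and 13.99 to 14.23 in knockout arrays. Srxn1, which repairs oxidised peroxiredoxin, was 3.22-fold higher (1.69 ± 0.10), Nqo1, a quinone reductase, 3.01-fold (1.59 ± 0.16) and Hmox1, heme oxygenase, 2.24-fold (1.16 ± 0.20, and 1.76 with the number block). Glucuronosyl- and sulfotransferase genes were called lower in 8 of 17 cases and higher in 5 (4 and 2 with the number block). Carboxylesterases were called higher in 5 of 13 and lower in 3 (2 in each direction with the number block, and 4 higher and 5 lower when centred on the named genes), with Ces3b 12-fold lower and Ces2a 1.74-fold higher. Among 20 hydroxysteroid dehydrogenases 5 were called in each direction, but none higher and 4 lower with the number block, and 1 higher and 11 lower when centred on the named genes.

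**Figure D3:**
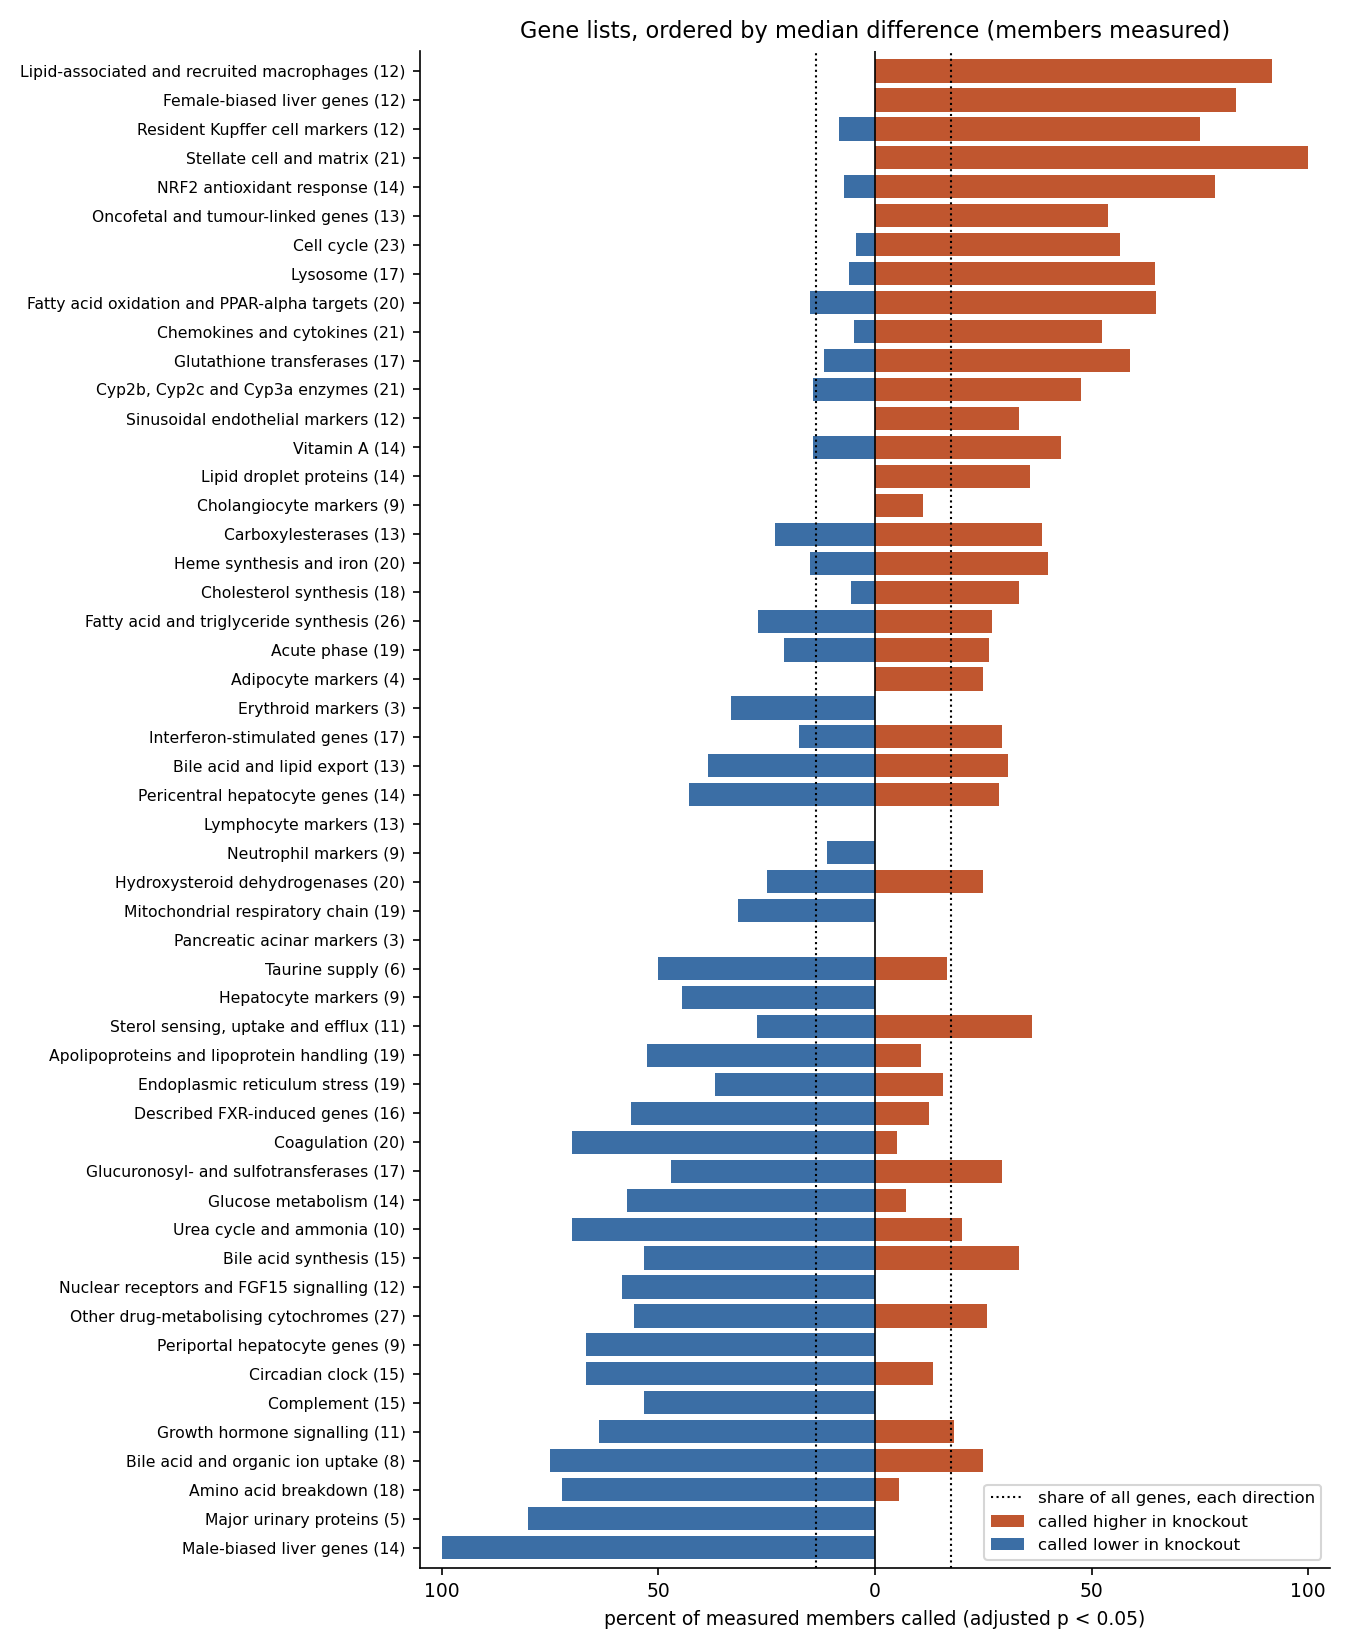
Percent of the measured members of each of 52 gene lists called higher (orange, right) or lower (blue, left) in knockout liver under OCA, ordered by the median difference, with the number measured in parentheses and dotted lines at the shares of all genes, 17.6% higher and 13.7% lower. Stellate cell and matrix genes reach the full length to the right and male-biased liver genes to the left.

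Cd36, Pdk4 and Acot2 were among the genes of fatty acid handling that were higher. Of 20 genes of fatty acid oxidation and PPAR-alpha response 13 were called higher and 3 lower (median 0.44), and 4 higher and 2 lower with the number block. Ppara and Cpt1a, the entry enzyme of mitochondrial oxidation (−0.46 ± 0.06), were among the lower genes. Cd36, a fatty acid importer, spanned 7.27 to 7.94, median 7.71, in wild-type and 10.32 to 10.67, median 10.62, in knockout liver (2.92 ± 0.11, 7.55-fold). Pdk4, which spares glucose by blocking pyruvate dehydrogenase, was 6.19-fold higher and Acot2, a mitochondrial thioesterase, 5.04-fold higher. Cyp4a14, a fatty acid hydroxylase gene, spanned 6.73 to 11.15 in wild-type and 12.02 to 12.21 in knockout arrays. Its difference of 2.41 became 1.82 without wild-type replicate 5, and its call ended with the number block.

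Lipid droplet genes were called higher in 5 of 14 cases and lower in none (median 0.14), and in 4 and none with the number block. Centring on the named genes gave 4 higher and 3 lower and a median of −0.05. Cidec, a droplet fusion protein gene, spanned 5.62 to 6.35 in wild-type and 8.15 to 9.31 in knockout arrays (2.82 ± 0.18, 7.07-fold), and Fitm1, a droplet assembly gene, was 3.57-fold higher (1.84 ± 0.11). Fatty acid and triglyceride synthesis was mixed, with 7 of 26 genes called in each direction, 3 higher and 5 lower with the number block, and 5 higher and 10 lower when centred on the named genes. Mogat1, a monoacylglycerol acyltransferase, was 9.09-fold higher, whereas Srebf1, the lipogenic transcription factor SREBP-1, was 2.33-fold lower (−1.22 ± 0.21). Cholesterol synthesis had 6 of 18 genes called higher and 1 lower (median 0.09), led by Hmgcs1 (0.99 ± 0.16), and no gene of the list was called with the number block. Centring on the named genes turned its direction, with 3 higher and 6 lower and a median of −0.10. Sterol sensing and transport had 4 of 11 called higher and 3 lower, 1 in each direction with the number block, and 4 higher and 6 lower when centred on the named genes. Of 19 apolipoprotein and lipoprotein genes 10 were called lower and 2 higher (median −0.18), but 1 in each direction with the number block, and 2 lower and 1 higher without the arrays whose names end in _2. Apoa5, which helps clear triglyceride, was 2.25-fold lower (−1.17 ± 0.06), and Lpl, lipoprotein lipase, was 2.31-fold higher (1.21 ± 0.15, and 2.04 with the number block).

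Prodh, Hal, Pck1 and Gys2 were among the lower genes of hepatocyte metabolism. Amino acid breakdown was called lower in 13 of 18 genes and higher in 1 (median −0.50), and in 8 and none with the number block. Prodh, proline dehydrogenase, was 2.89-fold lower (−1.53 ± 0.08), Hal, histidine ammonia lyase, 2.65-fold (−1.41 ± 0.12) and Hao1, the glycolate oxidase, 2.47-fold (−1.30 ± 0.09). The urea cycle list had 7 of 10 genes called lower and 2 higher (median −0.28), but 1 in each direction with the number block, with Otc at −0.42 ± 0.05. Glucose metabolism had 8 of 14 called lower and 1 higher (median −0.26), and 4 lower and 1 higher with the number block. Pck1, the gluconeogenic enzyme PEPCK, was 2.59-fold lower (−1.37 ± 0.16) and Gys2, liver glycogen synthase, 1.93-fold lower (−0.95 ± 0.08), while Igfbp1, which rises in fasted liver, was 2.36-fold higher (1.24 ± 0.28), with overlapping arrays and a difference of 2.91 with the number block.

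Complement and coagulation genes were also mostly lower where called. Complement genes were called lower in 8 of 15 cases and higher in none (median −0.42), and the terminal components stood out: C9 was 4.59-fold lower (−2.20 ± 0.19), C8b 2.66-fold and C8a 2.44-fold. The C9 arrays spanned 10.97 to 11.67 in wild-type and 8.56 to 9.94 in knockout liver. Coagulation genes were called lower in 14 of 20 cases and higher in 1 (median −0.22). F7, coagulation factor VII, was 1.92-fold lower (−0.94 ± 0.08), and Pros1, protein S, was the higher gene (0.62 ± 0.08, and 1.11 with the number block). With the number block 4 coagulation genes and 5 complement genes were called lower. Acute phase genes were mixed, with 5 of 19 called higher and 4 lower, 4 higher and none lower with the number block, and 4 higher and 8 lower when centred on the named genes. Orm2 (10.1-fold, 3.33 ± 0.42) and Lcn2, lipocalin 2 (7.37-fold, 2.88 ± 0.61), were much higher, and the Lcn2 arrays of the genotypes overlapped, with a difference of 5.33 with the number block. Periportal hepatocyte genes were called lower in 6 of 9 cases and higher in none (median −0.34), 4 of 9 with the number block. Hepatocyte markers were called lower in 4 of 9 cases (median −0.13), none of them with the number block, and Alb (−0.15) and Apoa1 (−0.14) also lost their calls when single arrays were left out.

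Markers of stellate cells, matrix and macrophages were higher in knockout liver. In bulk tissue more cells of a type and more RNA per cell cannot be told apart. All 21 measured stellate cell and matrix genes, a list also chosen with earlier results known, were called higher (median 0.85), 15 of them with the number block. The log2 of their summed levels spanned 11.76 to 12.09 in wild-type and 12.71 to 12.84 in knockout arrays. Col1a1, fibrillar collagen, spanned 5.62 to 6.30, median 6.07, against 6.84 to 8.01, median 7.07 (1.20 ± 0.18, 2.3-fold). Acta2, smooth muscle actin of activated stellate cells, spanned 5.48 to 6.15 against 7.83 to 9.07 (2.42 ± 0.20, 5.34-fold), but within number 7 of the vehicle arrays its gap was 0.64, and its call ended with the number block (1.29). Lrat, which stores retinol esters in quiescent stellate cells, was also higher (1.37 ± 0.13).

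Of 12 resident Kupffer cell markers 9 were called higher and 1, Cd163, lower (median 0.92), 9 higher and none lower with the number block, and their summed levels overlapped, at 11.14 to 12.38 in wild-type and 12.26 to 13.07 in knockout arrays. Vsig4 (1.37 ± 0.18), C1qb (1.38 ± 0.19) and Clec4f (0.65 ± 0.09) were higher, whereas Timd4 (0.46 ± 0.35) did not pass. With the number block the differences were 2.38 for Vsig4, 2.10 for C1qb and 1.08 for Clec4f, and the call of Cd163 ended. Genes of lipid-associated and recruited macrophages showed the highest median of any list (1.57), with 11 of 12 called higher and 10 with the number block, and their summed levels spanned 9.87 to 10.80 against 11.45 to 11.81. Gpnmb, a glycoprotein of such macrophages, spanned 3.23 to 3.60 in wild-type and 6.59 to 7.00 in knockout arrays (10.1-fold). Cd63, a lysosomal tetraspanin, was 7.75-fold higher, Cd68 3.53-fold and Trem2 2.17-fold. Lysosome genes, 11 of 17 called higher and 1 lower (median 0.49; 8 and 2 with the number block), include Cd63 and Cd68, which are also macrophage markers.

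Markers of other cell types gave few calls under OCA. None of 13 lymphocyte markers was called (median −0.06), and 1 of 9 neutrophil markers, Camp, was called lower (−0.39), a call that ended with the number block. When centred on the named genes, 7 lymphocyte and 4 neutrophil markers were called lower and none higher, beside 9397 of all 18820 genes lower. Of 9 cholangiocyte markers 1, Cldn4, was called higher (0.45), and it lost that call without any of 7 single arrays and with the number block. Krt19 (0.11 ± 0.09) and Sox9 (0.23 ± 0.11) did not pass. Within number 7 of the vehicle arrays 3 cholangiocyte markers were called higher and none lower, beside 13.9% of all genes higher. Sinusoidal endothelial markers were called higher in 4 of 12 cases (median 0.225) and in 1 with the number block, led by Cdh5 (0.55 ± 0.09, and 0.97 with the number block). Within number 7 of the vehicle arrays none was called higher and 3 were called lower, beside 10.1% of all genes lower. Pancreatic acinar markers had no call among 3, adipocyte markers had 1 of 4 higher (Retn, 0.94, and 2.22 with the number block) and erythroid markers 1 of 3 lower (Alas2, −1.15). The summed erythroid levels did not overlap, at 8.92 to 9.46 in wild-type and 7.82 to 8.40 in knockout arrays. A sum follows its brightest members, and the median difference of these 3 genes was 0.0016. Their median level per array overlapped, at 3.96 to 4.79 in wild-type and 4.12 to 4.62 in knockout arrays. No value is at 0 on this log2 scale, so the level of an absent marker is unknown here. The part of any change in the mix of cell types in the other lists was not tested.

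Chemokine and cytokine genes were called higher in 11 of 21 cases and lower in 1 (median 0.39), and in 6 and none with the number block. Ccl2, which draws monocytes, was 1.92-fold higher (0.94 ± 0.13) and Vcam1, a leukocyte adhesion molecule, 2.59-fold (1.37 ± 0.12, and 2.35 with the number block). Cell cycle genes were called higher in 13 of 23 cases and lower in 1 (median 0.57), and in 7 and 1 with the number block. Cdkn1a, the cell cycle inhibitor p21, was the largest of them, spanning 4.73 to 5.90 in wild-type and 7.97 to 8.47 in knockout arrays (2.86 ± 0.16, 7.28-fold, and a difference of 5.45 with the number block), and Mcm2, a replication licensing factor, was 2.29-fold higher (1.20 ± 0.11). Without the arrays whose names end in _2, which leaves 3 knockout and 5 wild-type arrays, 5 cell cycle genes were called higher and 1 lower, beside 19.2% of all genes called, 11.6% higher and 7.66% lower. Oncofetal and tumour-linked genes were called higher in 7 of 13 cases and lower in none (median 0.58), and in 5 with the number block, with Igf2bp3 at 5.83-fold beside Ly6d and Akr1c18. Genes of endoplasmic reticulum stress were called lower in 7 of 19 cases and higher in 3 (median −0.19), and 2 in each direction with the number block. Centring on the named genes gave 2 higher and 13 lower. Among the lower genes was Sdf2l1 (−0.80), a call lost without knockout replicate 4. The higher genes included Asns, asparagine synthetase (8.3-fold), and Atf3 (3.06-fold), both reporters of amino acid and stress signalling.

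Most genes called under OCA were called between genotypes without the drug as well. In the 8 vehicle arrays that share code number 7, none of which enters the OCA comparison, 4534 genes were called between genotypes (24.1%; 13.9% higher and 10.1% lower), and 3620 of them were called in the same direction under OCA. These are 61.4% of the OCA calls and 79.8% of the calls within number 7, and 4 genes were called in opposite directions. Of the 631 OCA calls of at least 2-fold, 620 (98.3%) were called the same way within number 7, and all 631 had the same sign. Across the 18820 genes the OCA and number 7 differences correlated at r = 0.921, a description, since genes are not independent replicates.

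**Figure D4:**
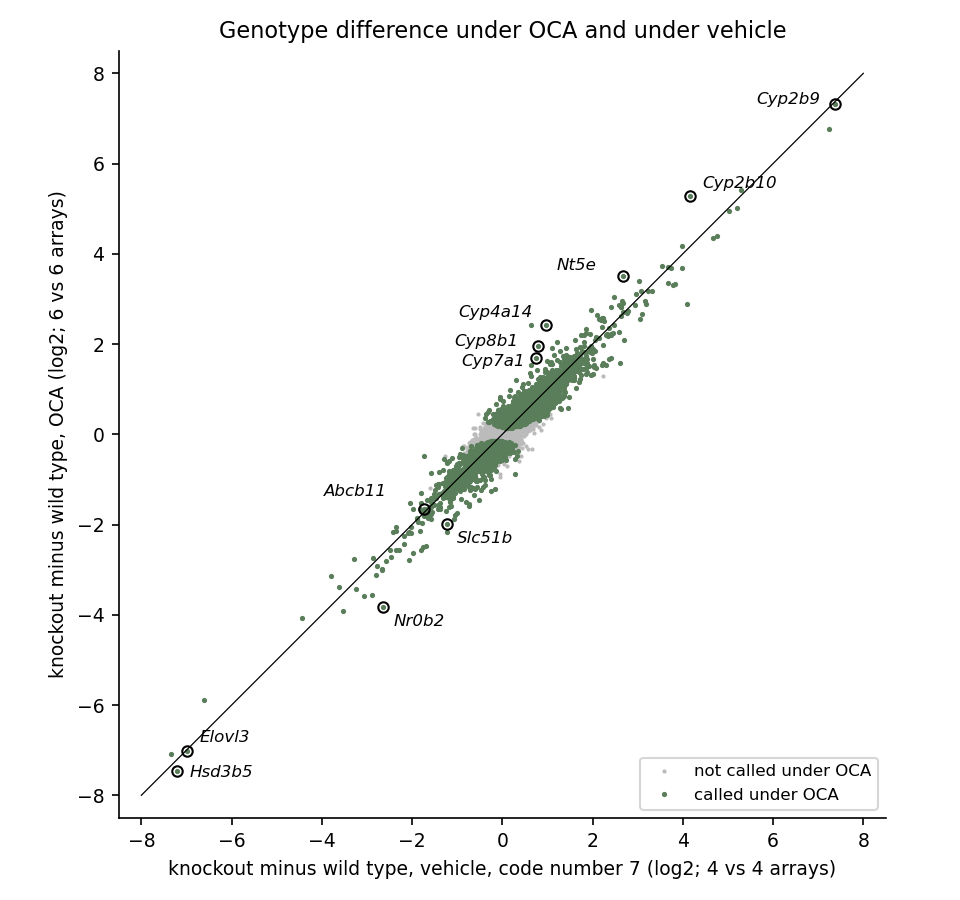
Genotype difference (knockout minus wild type, log2) of each of 18820 genes under OCA (vertical, 6 against 6 arrays) against the same under vehicle within code number 7 (horizontal, 4 against 4 arrays), with genes called under OCA in green, the diagonal drawn and some named genes circled. Hsd3b5, Elovl3 and Cyp2b9 lie near the diagonal, and Nr0b2, Slc51b, Cyp8b1 and Cyp7a1 lie farther from 0 under OCA than under vehicle.

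The gaps of Nr0b2, Slc51b and Cyp8b1 were larger in size under OCA than under vehicle, and that of Abcb11 was not. The vehicle gaps given here used all vehicle arrays and so mixed code numbers, whereas each genotype carried a single number under OCA. A change of the gap is therefore not separated from the code number in these values. Nr0b2 had a gap of −2.62 under vehicle and −3.83 under OCA, a change of −1.21 ± 0.36 (unadjusted p = 0.00255; limma adjusted p = 0.495). Slc51b went from −1.11 to −2.0, a change of −0.89 ± 0.19 (limma adjusted p = 0.168), and Csad from 1.10 to 2.03, a change of 0.94 ± 0.23 (limma adjusted p = 0.273). Cyp8b1 had the smallest p of all genes, with a gap of 0.81 under vehicle and 1.96 under OCA and a change of 1.15 ± 0.20 (limma adjusted p = 0.0842). Abcb11 had nearly the same gap in both settings, −1.68 and −1.65, with a change of 0.02 ± 0.17. Nt5e (0.88 ± 0.18, limma adjusted p = 0.135) had a larger gap under OCA as well.

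Tested over all 18820 genes with limma, no change of the gap passed Benjamini-Hochberg adjustment (0 called, 1140 at an unadjusted p under 0.05), so none of these differences of gaps is called. The count was 3 without wild-type vehicle replicate 6, 3 without wild-type vehicle replicate 2, 3 without knockout OCA replicate 4, 1 without wild-type OCA replicate 3, wild-type OCA replicate 4 or wild-type vehicle replicate 4, and 34 with the code number as a block.

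Circadian clock genes differed between genotypes under OCA, several of them with a smaller or opposite gap under vehicle. Of 15 measured genes 10 were called lower and 2 higher under OCA (median −0.40; 5 lower and 2 higher with the number block), against 4 lower and 1 higher within number 7 (median −0.19), where 4 genes were called in both and in the same direction. Npas2, an activator that pairs with the clock protein BMAL1, spanned 3.70 to 4.34 in wild-type and 4.38 to 5.52 in knockout OCA arrays, without overlap (1.21 ± 0.19, limma adjusted p = 1.71e-04). Arntl, the gene of BMAL1, was higher with overlapping arrays (0.79 ± 0.21, limma adjusted p = 0.00896). The repressor gene Per2 spanned 7.22 to 8.38 in wild-type and 6.13 to 7.75 in knockout arrays (−0.99 ± 0.25, limma adjusted p = 0.00616), and Tef, an output factor, spanned 8.10 to 8.55 against 7.26 to 8.02 (−0.74 ± 0.12, limma adjusted p = 2.83e-04). Ciart (−0.88), Cry1 (−0.87) and Per3 (−0.54) were lower as well, and Per3 lost its call when any of 5 single arrays was left out. With the number block the calls of Per2, Ciart and Cry1 ended, and the differences were 1.81 for Arntl, −1.50 for Tef and −2.17 for Per3.

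Under vehicle the 6-against-6 gaps were −0.40 for Arntl, 0.12 for Npas2, −0.15 for Per2 and 0.26 for Ciart, none of them called, beside 24% of all genes called in that comparison (14.1% higher and 9.91% lower), whereas Cry1 kept a similar gap (−0.75). That comparison mixes code numbers. It called 1 gene of the list lower and none higher, against 4 lower and 1 higher within number 7. Of all genes 10.1% were called lower and 13.9% higher within number 7. The change of the gap was 1.19 ± 0.38 for Arntl (unadjusted p = 0.00454; limma adjusted p = 0.57) and 1.08 ± 0.35 for Npas2 (unadjusted p = 0.00526; limma adjusted p = 0.618), so neither passed. With the code number as a block Tef (−1.06) and Per3 (−1.98) were among the 34 genes that passed (limma adjusted p = 0.0415 for each), as was Usp2, a clock-controlled protease gene (−2.20). None of the 34 passed in the fit to all 24 arrays without the block. The blocked changes rest on the few vehicle arrays with number 5 or 9. They were not refitted without wild-type vehicle replicate 6. The sources used here do not state the hour at which livers were taken, and its part in these values was not tested.

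**Figure D5:**
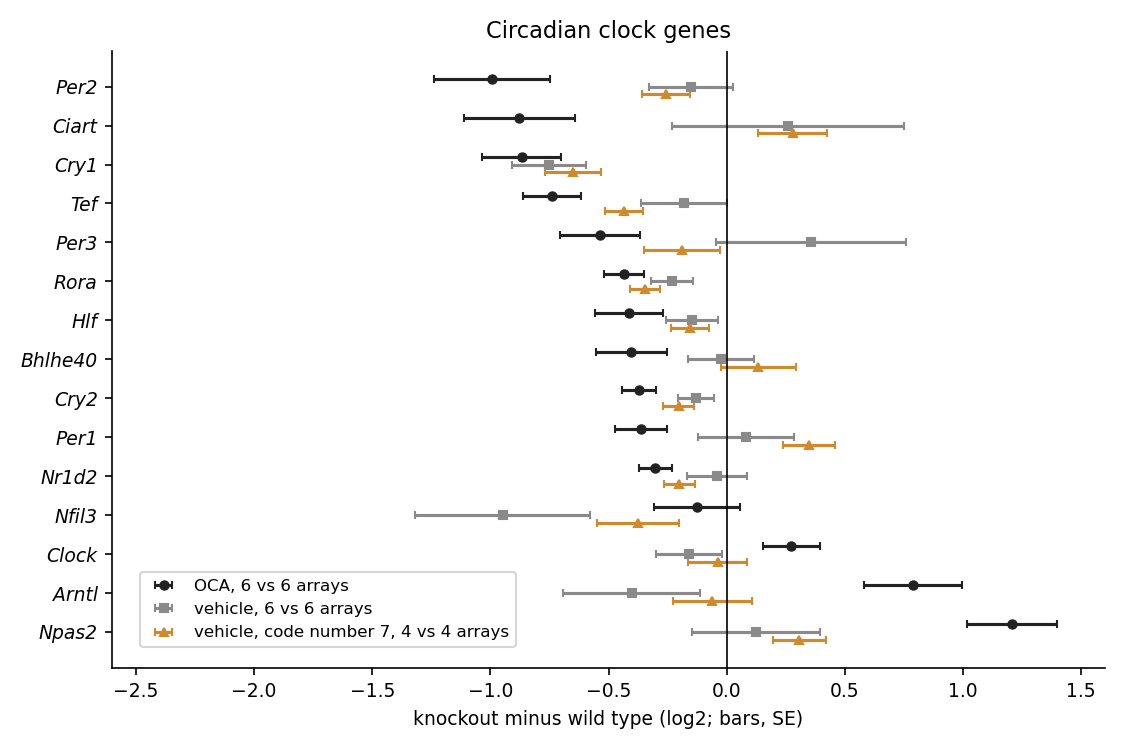
Knockout minus wild type (log2, with SE) of 15 circadian clock genes under OCA (black circles, 6 against 6 arrays), under vehicle (grey squares, 6 against 6) and under vehicle within code number 7 (orange triangles, 4 against 4), ordered by the OCA difference. Under OCA Npas2 and Arntl lie right of 0, at 1.21 and 0.79, and Per2 and Ciart lie left of it.

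Genes next to the targeted locus were examined as well. Of the 10 measured genes on either side of Nr1h4 on chromosome 10, in RefSeq order, 9 of 20 were called under OCA. Of these 7 were higher and 2 lower, and the median of the 20 was 0.13. Over all genes 31.3% were called, 17.6% higher and 13.7% lower. Gas2l3, the adjacent gene, had means of 6.16 in wild-type and 8.44 in knockout arrays (2.27 ± 0.16, 4.83-fold, limma adjusted p = 7.59e-08). Spic, a macrophage transcription factor gene, was higher by 1.32 (2.65 with the number block) and Apaf1, an apoptosis adaptor gene, by 0.78. Within number 7 of the vehicle arrays 6 of the 20 were called, beside 24.1% of all genes.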

How the data were processed

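Total RNA of 24 livers was hybridised to whole-transcript arrays, 1 mouse per array. The authors deposited log2 expression values made by RMA, per the submitters' processing notes; the sources used here do not give its version, and the log base was taken from the range of 0.87 to 13.6. The values were used as deposited. RMA shrinks low signals, so folds of dim genes are understated, and the number of arrays limits the precision.

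Of 35556 probe sets 21218 had 1 gene symbol, 1881 several and 12457 were not named here. Of the first, 21185 took a current symbol by gene number, which left 18820 genes. Members and lists were chosen with earlier results of these data known. The 12 OCA arrays were fitted as 2 groups (limma 3.58.1, R 4.3.3) with Benjamini-Hochberg adjustment over all genes, and changes of the gap as a contrast over 4 groups and 24 arrays. Scripts were tested on simulated data. Replicate numbers did not pair the OCA mice, with correlations of −0.05 to 0.05 over 6 same-number pairs.

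Named by rule were 6 bile acid genes, the 15 largest calls in each direction without predicted names, and up to 4 called members of each list by p, 186 genes in all. Other genes were chosen after their values were seen. List members not matched to a single symbol were not analysed here. Alternatives were scaling, filters, array weights, blocks and leaving out arrays.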

Additional observations from a re-analysis of the deposited data

Results flagged for a closer look

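In 24 of 372 groups of 6 arrays, 1 array lay apart from its own group, with a gap to the nearest array that exceeded Dixon's critical value as a share of the range of the group. Chance alone gives about 1 in 20 groups. In knockout replicate 2 this share was 0.814 for Aldh1a1, 0.662 for Cbs, 0.638 for Gys2, 0.806 for Mogat1 and 0.677 for Slco1a4. In knockout replicate 3 this share was 0.825 for Cd68 and 0.839 for Cxcl16. In knockout replicate 4 this share was 0.775 for Atf3, 0.665 for Cyp2b9 and 0.781 for Cyp3a44.

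In wild-type replicate 1 this share was 0.853 for Cry2, 0.635 for Ephx1 and 0.650 for Mmp12. In wild-type replicate 2 this share was 0.697 for Cidec and 0.725 for Pygl. In wild-type replicate 3 this share was 0.653 for Ftl1. In wild-type replicate 4 this share was 0.670 for Ces3b, 0.763 for Npas2 and 0.679 for Scd2. In wild-type replicate 5 this share was 0.706 for Apoa5, 0.712 for Hsd3b2, 0.646 for Mki67 and 0.727 for Serpina4-ps1. In wild-type replicate 6 this share was 0.632 for Ifi27l2a.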

How the results depend on the processing

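The count of 5893 genes called under OCA moved to 11313 when arrays were centred on the median of all 18820 named genes. It was 2336 with the code number blocked, and 1836 with that block and without wild-type vehicle replicate 6 (added after seeing the data). It was 3253 with the code letter blocked, and 3620 when arrays ending in _2 were left out. The last setting holds fewer arrays, and the cause of the other moves was not tested. The sources used here do not say what the code letter of the arrays stands for. Leaving out single arrays gave 5342 to 5740, and the replicate block, which has no basis in shared animals, gave 5323. The difference of the gaps gave 3 genes without wild-type vehicle replicate 6, 34 with the number block and 0 to 3 without single arrays; the cause was not tested.

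Of all 430 called list members and genes named by rule, 213 lost their call with the number block and 48 when some single array was left out. Of the 186 named genes, chosen for large differences or small p-values, 46 lost their call with the number block and 4 (Alb, Apoa1, Cldn4 and Cth) when some single array was left out. Quantile normalization and array weights changed no call among the 186 genes. Cd3g, not called, reversed with the number block (0.0355), and Lyve1 under vehicle reversed without wild-type vehicle replicate 6 (0.24) and within number 7 (0.17). The number and the genotype each take 1 value per group in the OCA arrays.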

Other observations

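Vitamin A genes were called higher in 6 of 14 cases and lower in 2 under OCA (median 0.20), in 4 and 2 with the number block, and in 5 each when centred on the named genes. Beside Lrat, the retinaldehyde dehydrogenase genes Aldh1a7 (1.91-fold, 0.93 ± 0.08) and Aldh1a1 (1.73-fold, 0.79 ± 0.07) were higher, as was Rdh16, a retinol dehydrogenase gene (2.41-fold, 1.27 ± 0.20). The retinoic acid receptor genes went opposite ways: Rarb was higher (1.06 ± 0.16), a call that ended with the number block, and Rara was lower (−0.43 ± 0.09, and −1.46 with the block). Of 20 genes of heme synthesis and iron 8 were called higher and 3 lower (median 0.09), and 2 higher and none lower with the number block. Centring on the named genes gave 5 higher and 6 lower and a median of −0.10. Beside Hmox1, Hfe, an iron sensor gene, was higher (0.56 ± 0.08, and 0.98 with the block), and Tfr2, the second transferrin receptor, was lower (−0.38 ± 0.07), a call that ended with the block.

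Interferon-stimulated genes showed no common direction, with 5 of 17 called higher and 3 lower, 1 higher and 2 lower with the number block, and 2 higher and 7 lower when centred on the named genes. Mx2, an antiviral GTPase gene, was 2.56-fold lower (−1.36 ± 0.16), and Oasl2 was 1.54-fold higher (0.62 ± 0.10), a call that ended with the number block. Respiratory chain genes were called lower in 6 of 19 cases and higher in none (median −0.11). The count was 1 lower with the number block, 2 lower without the arrays ending in _2 and 19 lower when centred on the named genes. Cox7a1, a cytochrome oxidase subunit gene, was at −0.70 ± 0.10. Pericentral hepatocyte genes were called lower in 6 of 14 cases and higher in 4 (median −0.06), and in 3 and 1 with the number block. Notum, a Wnt inhibitor gene (−0.71 ± 0.10, and −1.18 with the block), and Slc1a2, a glutamate importer gene (−0.60 ± 0.08, and −0.94 with the block), were lower, and Rhbg, an ammonia channel gene, was higher (1.15 ± 0.13).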
